A study of Mus musculus with 12 samples.

Results

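Transcripts of 46 genes that act in ribosome biogenesis, from transcription of ribosomal RNA to the last assembly steps of both ribosomal subunits, were followed in a mouse pancreatic alpha cell line and a mouse pancreatic beta cell line with and without the kinase inhibitor GW8510. The genes were a list drawn up by function, with earlier results of these data known, so the counts below describe a list not chosen blind. Each gene was read from 1 probe set: of those annotated to that gene alone, the brightest on average across the 12 arrays. Of the 46 genes, 42 could be read in this way, out of 12255 genes tested. Dkc1, Utp14a and Nob1 had no probe set paired with them here, and the single probe set of Mrto4 is also annotated to pseudogenes of it and was not used.

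The arrays were run to look for a way in which GW8510, annotated as a CDK2 inhibitor, could raise insulin expression. RNA was taken after 5 days from aTC1 (alpha) cells and bTC3 (beta) cells, each treated with 3.3 µM GW8510 in 0.1% DMSO or with 0.1% DMSO alone, with 3 biological replicates in each of the 4 groups. Medium and compound were renewed on day 3. Total RNA was hybridised to Affymetrix mouse expression arrays and the deposited values are RMA intensities on a linear scale, so every fold change below is the difference of log2 intensities. Both lines derive from islet tumours of transgenic mice in which a hormone gene promoter drove the SV40 T antigen (glucagon for aTC1, insulin for bTC3), so all 4 groups carry that oncogene, and each cell type is represented by a single line. The labels describe the culture medium of aTC1 cells only.

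The labelled lines were checked against hormone genes. Glucagon (Gcg) sat at the upper bound of the scale, 20000, on all 6 alpha arrays, and the insulin and amylin genes Ins2 and Iapp sat there on all 6 beta arrays. The beta arrays were not free of other hormones. Gcg read 6647, 6616 and 5997 on the 3 beta DMSO arrays and 11927, 11305 and 12889.8 on the 3 beta GW8510 arrays, and the 2 measured alpha markers of 4 listed, Gcg and Irx2, summed to between 6249 and 6938 there with DMSO against 21829 to 21913 on the alpha DMSO arrays. Somatostatin (Sst) read 18296, 17084 and 18078 with DMSO on beta arrays, 20000, the upper bound, on all 3 beta GW8510 arrays and 69 ± 10.3 (SD, n = 3) on alpha DMSO arrays. The 4 measured beta markers of 5 listed summed to 708 to 745 on alpha DMSO arrays, 1237 to 1351 on alpha GW8510 arrays and 44209 to 44394 on beta DMSO arrays. The 3 measured acinar markers of 4 listed summed to 613 to 651 with DMSO and 838 to 898 with GW8510 on alpha arrays, and to 225 to 304 and 308 to 341 on beta arrays. The 3 fibroblast markers summed to 255 to 280 with DMSO and 241 to 309 with GW8510 on alpha arrays, and to 287 to 343 and 423 to 537 on beta arrays. Gcg, the acinar and the fibroblast lists thus moved with GW8510 in at least 1 line as well. The part of these transcripts in the differences below was not tested. Markers of endothelium, leukocytes, ducts and fibroblasts reached at most 292 as a group mean for any gene. Median intensities were 174 to 182 on 11 arrays and 199.9 on beta GW8510 replicate 3, and replicates of a group correlated at 0.994 or more. None of the members' probe sets touched either bound of the scale on any array. In bulk RNA, fewer cells of a kind and less RNA per cell cannot be told apart. RMA is meant to bring arrays to a common scale, from which beta GW8510 replicate 3 still departed in its median. A change in the total RNA of a cell is thus not seen.

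Ribosomes are built in the nucleolus. RNA polymerase I transcribes a long precursor RNA, small nucleolar ribonucleoproteins of the box C/D and box H/ACA kinds methylate it and turn uridines into pseudouridines, and a large particle around the U3 RNA, the small-subunit processome, folds and cuts the part that becomes the 40S subunit. Separate sets of factors carry the pre-40S and pre-60S particles through the nucleus to the cytoplasm. The pathway uses much of the biosynthetic effort of a growing cell, many of its genes are known targets of the MYC transcription factors, and in secretory endocrine cells it supplies the ribosomes that make hormone precursors.

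Without the compound, the beta line carried less of nearly every one of these transcripts than the alpha line. Of the 42 members, 40 were lower in beta cells at an adjusted p under 0.05 (limma, Benjamini-Hochberg over all genes) and 0 were higher, where 29.0% of all genes tested were lower and 26.9% higher. Counted at an unadjusted p under 0.05 the numbers were 41 lower and 0 higher, against 3821 lower and 3452 higher of all 12255 genes tested. The median difference of the members was -1.06 on the log2 scale, a 2.09-fold lower level, against -0.05 for all genes, and the estimates ran from -2.92 to -0.15, all below 0. In 22 members (52.4%) the level was called and at least 2-fold lower, which held for 7.23% of all genes. The 3 beta DMSO arrays lay below the 3 alpha DMSO arrays in all 42 members, an order that 35.6% of all genes share. With the treated arrays added, all 6 beta arrays lay below all 6 alpha arrays in 37 members, against 17.9% of all genes, the exceptions being Nop56, Noc4l, Bysl, Bop1 and Gnl3. Line, culture and any processing batch cannot be told apart in this comparison.

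**Figure D1:**
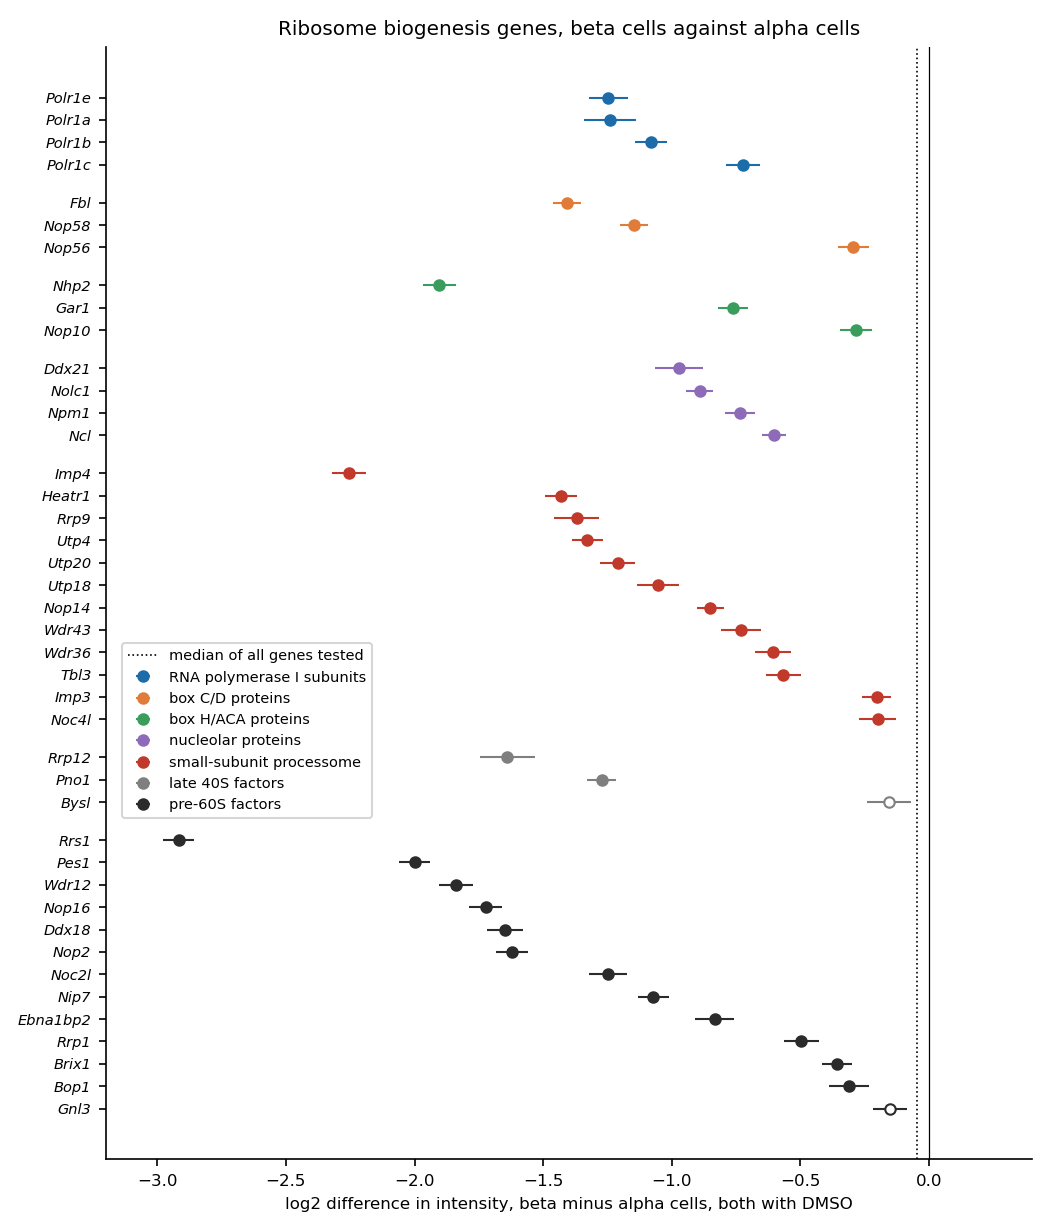
Difference in log2 intensity of each of the 42 genes between beta and alpha cells, both with DMSO, ordered by role, with the standard error of the fit as bars. Filled points passed the adjusted p threshold and open points (Bysl, Gnl3) did not, and every point lies to the left of 0, from -2.92 for Rrs1 to -0.15 for Gnl3.

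GW8510 moved fewer of the genes and by less. In alpha cells 19 of 42 members rose following treatment (background 20.2% of all genes) and 3 fell (background 21.2%), with a median of 0.18 against 0.03 for all genes, and 20 did not pass the test. In beta cells 20 rose (background 19.7%) and 3 fell (background 14.4%), with a median of 0.19 against 0.07, and 19 did not pass. The share of members that rose was thus 45.2% in alpha and 47.6% in beta cells. Among the alpha rises the estimates reached 1.16 for Polr1e, and among the beta rises 1.04 for Utp4, and no other member changed by as much as 2-fold in either line. The rises were small beside the line difference: the median size of a called change was 0.42 in alpha and 0.32 in beta cells, against 1.08 for the called differences between lines.

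**Figure D2:**
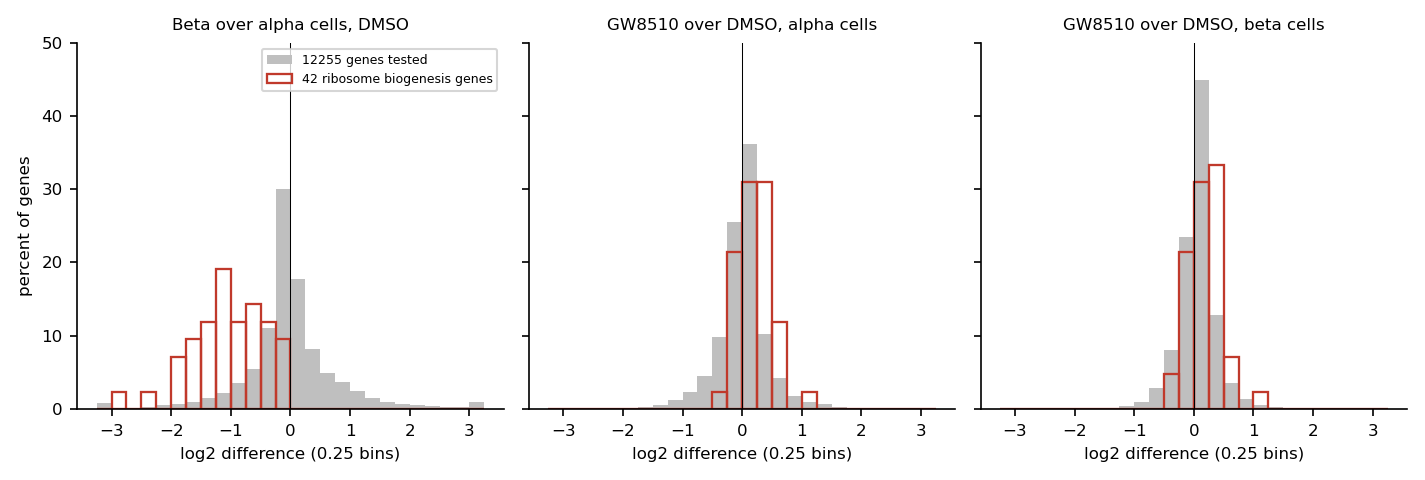
Percent of genes in bins of 0.25 on the log2 scale, for the 42 ribosome biogenesis genes (red outline) and all genes tested (grey), in the comparison of lines with DMSO and in the GW8510 comparison of each line. Genes beyond the plotted range are counted in the end bins. The members lie to the left of the other genes between lines and slightly to the right with GW8510.

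Rises were called in both lines for 14 members, namely Bop1, Bysl, Imp4, Nhp2, Noc4l, Nolc1, Nop14, Nop2, Pno1, Polr1e, Rrp9, Utp4, Wdr12 and Wdr43, a pattern held by 9.08% of all genes. Gar1 and Nop58 fell in both lines. Utp20 rose in alpha and fell in beta cells, Brix1, Heatr1, Nop10 and Tbl3 were called higher in alpha cells alone, Gnl3, Nip7, Nop16, Nop56, Pes1 and Rrp1 in beta cells alone, and 14 members passed in neither line. The 2 lines share no arrays, and over the 42 members their log2 changes correlated with r = 0.447 (rho = 0.530), against 0.378 (0.411) over all genes. Being called in 1 line alone does not show a difference between lines. The difference itself passed the test in 11 members (background 28.6%), 5 with the higher change in beta cells (background 16.5%) and 6 with the higher change in alpha cells (background 12.1%), and its median over the members was 0.02. The 5 higher in beta cells were the less stable side: with any 1 of 8 of the 12 arrays left out (the 3 alpha DMSO arrays, alpha GW8510 replicates 2 and 3, beta DMSO replicates 2 and 3, beta GW8510 replicate 3) the count was 2 or 3.

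**Figure D3:**
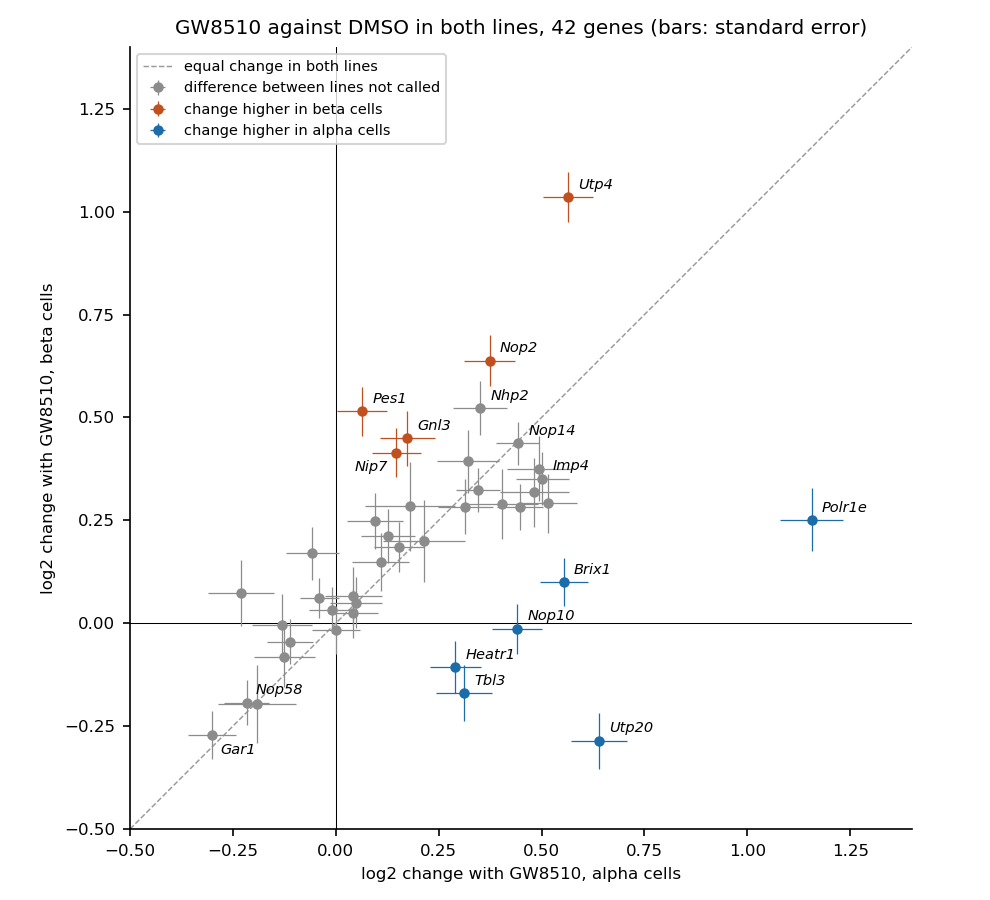
Log2 change with GW8510 in alpha cells (horizontal) and beta cells (vertical) for the 42 genes, with standard errors. Colours mark the 11 genes whose change differed between the lines at an adjusted p under 0.05; Polr1e and Utp20 lie far below the line of equal change and Utp4 and Pes1 above it.

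RNA polymerase I was represented by 4 subunits, all lower in beta cells. Polr1a, the largest and catalytic subunit, read 517, 511 and 587 on the alpha DMSO arrays and 235, 241 and 207 on the beta DMSO arrays, a difference of -1.24 ± 0.10 (log2, ± standard error). Polr1b, the second largest subunit, differed by -1.08 ± 0.06 and Polr1c, which RNA polymerase III also uses, by -0.72 ± 0.06. None of these 3 passed the test with GW8510 in either line, with estimates between -0.06 and 0.21, although the 2 other probe sets of Polr1a were called higher in beta cells (0.28 and 0.32). Polr1e, the PAF53 subunit of the enzyme's initiation and elongation heterodimer, stood apart from them. It read 681, 649 and 646 with DMSO and 1375, 1420.1 and 1619 with GW8510 in alpha cells, a 2.23-fold rise (log2 1.16 ± 0.08, limma adjusted p = 1.76e-07). In beta cells it read 307, 267 and 261 with DMSO and 318, 335 and 338 with GW8510. The groups did not overlap in either line, but the beta rise was 0.25 (adjusted p = 0.0243) and the difference between lines -0.91 ± 0.11 (adjusted p = 6.4e-05), so that the gap between treated lines was wider than between untreated ones. The beta rise missed the threshold, at an adjusted p of up to 0.0902, when beta DMSO replicate 2 or 3 or beta GW8510 replicate 2 or 3 was left out, with estimates from 0.21 to 0.24. The probe set read for Polr1e is of a kind whose probes may match other transcripts, and its other probe set gave 1.18 in alpha and 0.34 in beta cells, both called.

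Among the box C/D proteins, which hold the methylating particles together, the catalytic methyltransferase Fbl (fibrillarin) read 5664, 5926 and 6282 in alpha and 2252, 2225 and 2258 in beta cells with DMSO, 2.65-fold lower in the beta line. Nop58 was 2.22-fold lower and Nop56, its partner in the same core, 1.23-fold lower. With GW8510 the partners parted. Nop58 fell from 7956, 7475 and 7959.6 to 6622, 6818 and 6691 in alpha cells (log2 -0.22 ± 0.05, limma adjusted p = 0.00661) and from 3646, 3474 and 3434 to 3046, 2947 and 3244 in beta cells (log2 -0.19 ± 0.05, adjusted p = 0.0164). Every treated array lay below every DMSO array of its line. Nop58 had 1 probe set. The beta fall lost its call without beta DMSO replicate 1 (-0.17, adjusted p = 0.0712) and without beta GW8510 replicate 2 (-0.16, adjusted p = 0.0625). Nop56 gave 0.15 in alpha cells, not called, and rose by 0.19 in beta cells, and Fbl passed in neither line (-0.11 and -0.04). The Nop56 estimate was 0.12 without beta GW8510 replicate 3, and the call was lost then and without any 1 of the 3 beta DMSO arrays.

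The box H/ACA proteins Nhp2 and Gar1 moved in opposite directions with GW8510. Nhp2, an RNA-binding core protein, was among the 5 members with the largest line difference, reading 5743, 5092 and 5605 in alpha and 1457, 1506 and 1428 in beta cells with DMSO (3.74-fold lower, log2 -1.90 ± 0.06). It rose in both lines, to 6991, 7027 and 6921 in alpha cells (log2 0.35 ± 0.06) and to 2024, 2007 and 2285 in beta cells (log2 0.52 ± 0.06), without overlap of the arrays. Gar1, which sits on the pseudouridine synthase in the same particle, did the reverse. Gar1 read 1857, 1774 and 1777 with DMSO and 1539, 1439 and 1418 with GW8510 in alpha cells (log2 -0.30 ± 0.06, limma adjusted p = 0.00118). In beta cells Gar1 read 1004, 1092 and 1097 and 842, 888 and 915 (log2 -0.27 ± 0.06, adjusted p = 0.00342). These falls were of like size in both lines, with a difference of 0.03 ± 0.08. Gar1 had 1 probe set, so no other could check them. Nop10, the smallest core protein, rose from 7291, 7514 and 7876 to 10309, 10276 and 10191 in alpha cells (log2 0.44 ± 0.06), whereas the beta arrays overlapped, at 6289.8, 5815 and 6527 with DMSO and 5839, 6102 and 6516 with GW8510. The difference between lines was -0.45 ± 0.09 (adjusted p = 0.00186), and the second probe set of Nop10 called it too, with a rise of 0.31 in alpha cells and a called fall in beta cells (-0.16).

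**Figure D4:**
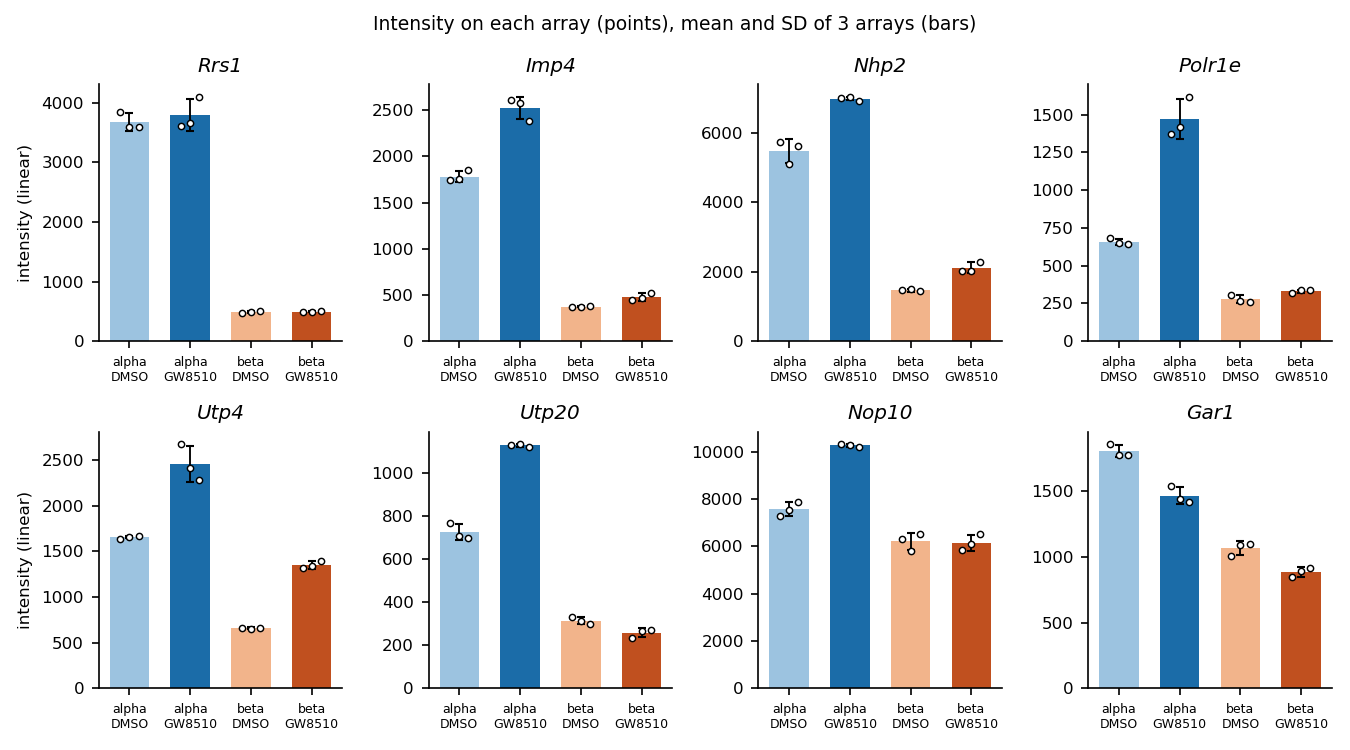
Linear intensity of 8 of the genes on each of the 12 arrays (points), with the mean and SD of 3 arrays as bars, for alpha and beta cells with DMSO and with GW8510. Rrs1 shows a line difference and no called GW8510 change, Polr1e and Nop10 change mainly in alpha cells, Utp4 rises in both, Utp20 rises in alpha and falls in beta cells, and Gar1 falls in both.

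Of the 4 further nucleolar proteins, all lower in beta cells, Nolc1 was the 1 called with GW8510 on the probe set read. Npm1 (nucleophosmin), a multifunctional nucleolar chaperone, read 15062, 15177 and 14629 with DMSO and 15067, 14734 and 15091 with GW8510 in alpha cells, and 8933, 9662 and 8373 and 9195, 8820.4 and 8623 in beta cells. Within each line the Npm1 arrays overlapped (a second probe set of Npm1 was called higher in beta cells, at 0.21), while all 6 beta arrays lay below the alpha arrays (log2 -0.74 ± 0.06). Ncl (nucleolin) differed by -0.60 ± 0.05 between lines and by -0.04 and 0.06 with GW8510, neither called, while 1 of its 3 other probe sets was called lower in both lines (-0.75 and -0.87). The RNA helicase Ddx21 gave -0.19 and -0.20, also not called, while its second probe set was called higher in both lines (0.56 and 0.79), so its direction with GW8510 depends on the probe set. Nolc1 (Nopp140), a chaperone of small nucleolar ribonucleoproteins, rose from 1501, 1450.2 and 1511 to 1902, 1944 and 1828 in alpha cells and from 802, 831 and 771 to 972, 988 and 1049 in beta cells. The Nolc1 probe sets disagreed too. Its 2 other probe sets gave -0.11 and 0.05 in alpha cells, neither called, and -0.19 and 0.31 in beta cells, called in opposite directions, whereas all 3 were lower in the beta line.

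The small-subunit processome supplied 12 measured members, all lower in beta cells with a median of -0.95. With GW8510, 9 of its 12 members rose (background 20.2%) and 1 fell (background 21.2%) in alpha cells, with a median of 0.36 against 0.03 for all genes. In beta cells 6 rose (background 19.7%) and 1 fell (background 14.4%), with a median of 0.18 against 0.07. Imp4, which guides the pairing of U3 with the precursor RNA, had the second largest line difference of the 42 members, reading 1741, 1753 and 1851 in alpha and 371, 370.1 and 378 in beta cells (4.77-fold, log2 -2.25 ± 0.06). Imp3, its partner in the same 3-protein module, differed by only -0.20 ± 0.06. With GW8510 Imp4 rose to 2609.8, 2579 and 2385 in alpha cells (log2 0.50 ± 0.06) and to 448, 462 and 521 in beta cells (log2 0.35 ± 0.06), the second of which its other probe set did not call (0.21), while Imp3 gave -0.01 and 0.03 and passed in neither.

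Within UTP-A, the subcomplex that binds the precursor first, Utp4 (cirhin) gave the largest rise of any member in beta cells. It read 665, 652 and 663 with DMSO and 1318, 1342 and 1397 with GW8510 in beta cells (2.05-fold, log2 1.04 ± 0.06, limma adjusted p = 2.22e-07). In alpha cells Utp4 rose from 1641, 1659.9 and 1673 to 2677, 2409 and 2284 (1.48-fold, log2 0.56 ± 0.06). The change was larger in beta cells by 0.47 ± 0.09 (adjusted p = 0.00133), and the treated beta arrays still lay below the untreated alpha arrays. Utp4 had 1 probe set. Wdr43, of the same subcomplex, rose by 0.32 and 0.39, but its second probe set gave -0.05 and -0.19, neither called. Heatr1 rose from 748, 672 and 676 to 841, 883 and 838 in alpha cells and read 266, 241 and 271 and 235, 242 and 245 in beta cells (-0.11, not called), a difference between lines of -0.40. Its second probe set gave 0.00 in alpha cells and 0.27 for the difference, neither called.

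UTP-B, a second subcomplex, was less uniform. Tbl3 rose from 542, 498 and 559 to 692, 650.1 and 639.6 in alpha cells (log2 0.31 ± 0.07) and read 364, 366 and 349 and 306, 306 and 349 in beta cells, where the groups only just overlapped (-0.17 ± 0.07, not called). The difference between lines was -0.48 ± 0.10 (adjusted p = 0.00263). Utp18 was the only processome member to fall in alpha cells, from 2014, 1947 and 1881 to 1498, 1674 and 1819 (log2 -0.23 ± 0.08, adjusted p = 0.0367), a call lost when any 1 of the 3 alpha DMSO arrays or alpha GW8510 replicate 1 or 2 was left out, with an estimate of -0.16 (adjusted p = 0.135) without alpha GW8510 replicate 1. Wdr36 passed in neither line (0.04 and 0.07).

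Utp20, a very large scaffold protein of the particle, was the single member called in opposite directions. In alpha cells it read 767, 709 and 701 with DMSO and 1131, 1134 and 1121 with GW8510 (log2 0.64 ± 0.07, limma adjusted p = 1.03e-05). In beta cells it read 332, 312 and 298 with DMSO and 234, 268 and 271 with GW8510 (log2 -0.29 ± 0.07, adjusted p = 0.00652). The groups did not overlap in either line and the difference between lines, -0.92 ± 0.10 (adjusted p = 2.28e-05), was the largest among the members. Utp20 had 1 probe set. Nop14, Noc4l and Rrp9, further proteins of the particle, rose in both lines: Nop14 by 0.44 and 0.44, Noc4l by 0.52 and 0.29, and the U3-specific protein Rrp9 by 0.40 and 0.29. Nop14 moved almost equally, from 947, 917 and 882 to 1268, 1233 and 1228 in alpha and from 518, 488 and 516 to 683, 665 and 713 in beta cells, with a difference of 0.00 ± 0.07. Noc4l rose from 703, 655 and 694 to 1030.1, 989 and 916 in alpha and from 607, 565 and 615 to 678, 714 and 799 in beta cells, and the treated beta arrays overlapped the untreated alpha arrays. The beta rise of Rrp9 lost its call without beta DMSO replicate 1 or 2 or beta GW8510 replicate 3 (0.22 to 0.28), and the small line difference of Noc4l (-0.20) lost its call without alpha DMSO replicate 1 or 3 or beta DMSO replicate 1 or 2 (-0.16 to -0.21).

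Of the late 40S factors, Pno1, which stays on the pre-40S particle until the final cut, read 2698, 2577 and 2468 with DMSO and 3431, 3481 and 3637 with GW8510 in alpha cells and 1068, 1085 and 1049 and 1248, 1278 and 1369 in beta cells. Pno1 was 2.42-fold lower in the beta line and rose in both lines without overlap, by 0.45 and 0.28. Bysl (bystin), which acts at the same stage, also rose in both, by 0.48 and 0.32, of which a second probe set called the alpha rise (0.25) and not the beta rise (0.10). Its line difference of -0.16 ± 0.08 was not called, although that second probe set gave -0.97 and was called lower. Rrp12, a pre-40S export factor, was 3.11-fold lower in beta cells and did not pass with GW8510 (0.18 and 0.28).

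The 13 measured pre-60S factors included the member with the widest line difference. Of the 13, 12 were lower in beta cells (background 29.0%, median -1.25), 4 rose in alpha cells (background 20.2%) and 8 in beta cells (background 19.7%). On the probe sets read, none was called lower with GW8510 in either line (background 21.2% in alpha and 14.4% in beta cells). Second probe sets of Pes1 in alpha cells (-0.60) and of Brix1 in beta cells (-0.43) were called lower. Counted at an unadjusted p under 0.05, 6 of the 13 were higher and 0 lower in alpha cells and 8 higher and 0 lower in beta cells. Of all 12255 genes, 2891 were higher and 2937 lower at that threshold in alpha cells, and 3136 higher and 2088 lower in beta cells. Rrs1, which helps bring the 5S RNA particle into the pre-60S subunit, read 3848, 3602 and 3590.3 in alpha and 469, 489 and 505 in beta cells with DMSO. That 7.55-fold gap (log2 -2.92 ± 0.06, limma adjusted p = 2.11e-12) was the largest of the 42 members. With GW8510 Rrs1 read 3614, 3661 and 4104 in alpha and 492, 494 and 499 in beta cells, overlapping the DMSO arrays of each line.

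The 3 proteins of the PeBoW complex, which acts in processing of the large-subunit RNA, differed among themselves. Pes1 read 2043, 2016 and 2011 in alpha and 499.6, 515 and 503 in beta cells with DMSO (4-fold lower), Wdr12 1687, 1759 and 1659 and 503, 462 and 461 (3.58-fold lower), and Bop1 693, 673 and 788 and 580.1, 587 and 564 (1.24-fold lower). The gap was thus wide for Pes1 and Wdr12 and narrow for Bop1. With GW8510 Bop1 rose by 0.49 and 0.38 and Wdr12 by 0.31 and 0.28 in alpha and beta cells. Pes1 read 2092, 2170.4 and 2081 in treated alpha cells, where the test was not passed (0.06 ± 0.06), and 692, 686 and 795 in treated beta cells (log2 0.51 ± 0.06), a difference between lines of 0.45 ± 0.09 (adjusted p = 0.0018). The second probe set of Pes1 gave a like difference between lines, 0.44, but from other values, -0.60 in alpha cells, called, and -0.16 in beta cells, not called. The second probe set of Wdr12 did not call the rises (0.24 and 0.16).

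Nop2, a methyltransferase of the large-subunit RNA, rose in both lines and more in beta cells. It read 1207, 1130.3 and 1243 with DMSO and 1610.1, 1504 and 1524 with GW8510 in alpha cells (log2 0.37 ± 0.06), and 372, 391 and 401 and 585, 583 and 643 in beta cells (log2 0.64 ± 0.06). All treated arrays were above the DMSO arrays of their line. The difference between lines was 0.26 for Nop2, 0.28 for the nucleolar GTPase Gnl3 (nucleostemin) and 0.27 for Nip7, at adjusted p of 0.0391, 0.0474 and 0.0343. These 3 are the calls behind the instability given above. Gnl3 lost its call when any array other than beta DMSO replicate 1 or beta GW8510 replicate 2 was left out, with estimates from 0.23 to 0.30. Nop2 lost it without alpha DMSO replicate 1 or 3, alpha GW8510 replicate 2 or 3, beta DMSO replicate 1 or 2 or beta GW8510 replicate 3 (0.22 to 0.27). Nip7 lost it without alpha DMSO replicate 1 or 2, alpha GW8510 replicate 3, beta DMSO replicate 2 or 3 or beta GW8510 replicate 3 (0.22 to 0.27), and its second probe set gave -0.05. Nip7 read 2182, 2128 and 2084 with DMSO and 2393, 2419 and 2269 with GW8510 in alpha cells, not called although its second probe set was called higher (0.59), and rose from 1074, 1014 and 957 to 1313, 1311 and 1434 in beta cells.

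Gnl3 itself read 992, 949 and 1012 with DMSO and 1038, 1146 and 1149.5 with GW8510 in alpha cells, not called, and rose from 946, 872 and 840.4 to 1202, 1148 and 1279.8 in beta cells. Brix1 did the opposite. It rose from 1947, 1959 and 1907 to 2712, 2937 and 2888 in alpha cells and read 1579, 1487 and 1476 and 1533, 1619.8 and 1720.4 in beta cells, a difference between lines of -0.45. Its second probe set called no alpha change (-0.09) and a fall in beta cells (-0.43). The remaining pre-60S members differed more between lines than with the compound. Ddx18, an RNA helicase, was 3.14-fold lower in beta cells, Nop16 3.3-fold, Noc2l 2.38-fold, Ebna1bp2 1.78-fold and Rrp1 1.41-fold. Among these 5, GW8510 raised only Nop16 (0.21) and Rrp1 (0.25), both in beta cells. The Nop16 call was lost without beta DMSO replicate 1 or 3 or beta GW8510 replicate 1 (0.18 to 0.19) and was not made by its second probe set (0.23), and the Rrp1 call without beta DMSO replicate 2 (0.22).

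Other probe sets gave a check on the single probe set read for each gene, since 25 of the 42 members had more than 1. All 24 of the members called lower in beta cells that had another probe set had one called the same way. With GW8510 the check was weaker: of the called members with another probe set, 6 of 11 in alpha cells, 6 of 13 in beta cells and 3 of 6 for the difference between lines had one called the same way, and 1, Nolc1 in beta cells, had one called the opposite way beside one called the same way. Over every alternative processing tried, 39 of 40 line calls, 16 of 22 alpha calls, 11 of 23 beta calls and 6 of 11 calls of the difference were kept. The 6 that kept a called difference were Nop10, Pes1, Polr1e, Tbl3, Utp20 and Utp4.

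Further genes of the pathway come from lists written from general knowledge, also with earlier results of these data known. Their counts are to be read against all genes tested: 29.0% lower and 26.9% higher in beta cells with DMSO, 20.2% higher and 21.2% lower with GW8510 in alpha cells, and 19.7% higher and 14.4% lower in beta cells. At an unadjusted p under 0.05, 2891 of all 12255 genes rose and 2937 fell with GW8510 in alpha cells. In beta cells 3136 rose and 2088 fell at that threshold. No test between lists was made. Of 71 other assembly factors measured of 91 listed, 62 were lower and 3 higher in beta cells with DMSO (median -0.74), 26 rose and 8 fell with GW8510 in alpha cells, and 21 rose and 7 fell in beta cells. Ftsj3, a methyltransferase of the precursor RNA, read 1594, 1500.2 and 1419 in alpha and 252, 260.2 and 211 in beta cells with DMSO and rose in both lines (0.36 and 0.56). Rrp36, an early processing factor, rose in alpha cells from 681, 687 and 712 to 1321, 1278 and 1238 and gave 0.19 in beta cells, not called. Spata5 fell from 507, 472 and 471 to 310, 290 and 302 in alpha and from 281, 290 and 272 to 185, 194 and 203 in beta cells. Sbds read higher in beta than in alpha cells with DMSO (means of 1051 and 871) and rose to a mean of 1790 with GW8510 in beta cells. Of 12 measured exosome genes, which trim the precursor, 6 were lower and 1 higher in beta cells with DMSO, 1 rose and 3 fell with GW8510 in alpha cells, and 2 rose and 1 fell in beta cells, so that with GW8510 the exosome counts were near or below the all-gene shares.

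Partners of RNA polymerase I split in alpha cells. Of 13 measured of 17 listed, 12 were lower in beta cells with DMSO, 5 rose and 5 fell with GW8510 in alpha cells, and 5 rose and 0 fell in beta cells (5 and 0 also at an unadjusted p under 0.05). The shared subunits Polr1d and Polr2f rose alike in both lines, by 0.50 and 0.51 and by 0.45 and 0.46. The initiation factor Rrn3 rose in alpha cells from 863, 772 and 746 to 1055, 1251 and 1329 and read 648, 644 and 552 and 595, 608 and 552 in beta cells. Taf1b, of the promoter selectivity factor that Rrn3 binds, went the other way in alpha cells, from 416, 443 and 388 to 210.2, 239 and 217, and gave -0.22 in beta cells, not called. Taf1d, of the same factor, fell by 0.35 on the log2 scale in alpha cells and rose by 0.32 in beta cells.

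Ribosomal protein genes had medians nearer to 0 between the lines, with no test against the other lists. Of 22 large-subunit genes measured of 47 listed, 10 were lower and 2 higher in beta cells with DMSO (median -0.13), and of 20 small-subunit genes of 32, 9 were lower and 1 higher (median -0.09). Many of these genes were not read because their probe sets also match pseudogenes or several genes, and for those read such sharing was not tested. Some lay close to the upper bound of the scale, as Rpl13a did at 20000 on 2 and 19952 on 1 of the alpha DMSO arrays, so that a line difference read from them is limited by that bound. With GW8510 in alpha cells 0 large-subunit genes rose and 1 fell and 0 small-subunit genes rose and 2 fell (at an unadjusted p under 0.05, 1 and 4, and 0 and 4). In beta cells 2 and 4 rose and 0 fell in either list (5 and 5 rose and 0 fell unadjusted). Among them Rps6, of the 40S body, fell by 0.49 on the log2 scale in alpha cells and Rps25 rose by 0.69 in beta cells. The probe sets read for them were dim, with DMSO means of 915 (Rps6, alpha cells) and 814 (Rps25, beta cells). A further 9 probe sets of Rps6 and 1 of Rps25 carry several gene symbols and were not read. These 2 changes may therefore not be those of the main transcripts.

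MYC family transcripts are given because many of the members are known MYC targets. Mycn read 623, 526 and 555 with DMSO and 172, 181 and 191 with GW8510 in alpha cells (log2 -1.65 ± 0.11, limma adjusted p = 1.4e-07), and 375, 322 and 373 and 297, 258 and 347 in beta cells, where the groups overlapped (-0.25, not called). With DMSO Mycn was lower in beta than in alpha cells (-0.67). Myc read 181, 177 and 152 in alpha and 239.6, 228 and 228 in beta cells with DMSO, higher in the beta line by 0.45. With GW8510 it fell by 0.32 on the log2 scale in alpha cells, to 154, 139 and 118, where the groups overlapped. These alpha readings lay near or below the median intensity of the arrays. In beta cells Myc read 252, 260 and 298 with GW8510, above its DMSO arrays there, but was not called. Of the 11 genes of the family and its partners, 2 rose (background 20.2%) and 5 fell (background 21.2%) with GW8510 in alpha cells. In beta cells 0 rose (background 19.7%) and 1 fell (background 14.4%), or 0 and 2 at an unadjusted p under 0.05. The list pools the MYC genes with partners of the Mxd and Mxi kinds, so its counts give no direction of MYC activity. In alpha cells the means of Mxd3 (629 to 256) and Mxi1 (1013 to 503) fell and that of Mxd4 rose (376 to 703). Of 17 known MYC targets outside the pathway, 13 were lower (background 29.0%) and 1 higher (background 26.9%) in beta cells with DMSO (median -0.98). With GW8510, 7 rose (background 20.2%) and 4 fell (background 21.2%) in alpha cells. In beta cells 10 rose (background 19.7%) and 2 fell (background 14.4%). The falls were thus near the all-gene shares in both lines and the rises above them, and no cause was tested.

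MYC proteins bind the E-box CACGTG, which reads the same on both strands, and promoters of the members were searched for these letters. The RefSeq promoter windows used (mouse build GRCm38.p6) run from 250 bases before to 50 after each start. Of 35 measured members with a window, 8 (22.9%) held the motif, against 10.9% of the 9783 tested genes with a window and 7.15% of all 32851 windows. The stretches around the motif are printed because they cover members with some of the largest line differences and GW8510 changes, 5′ to 3′ on the gene's strand, with the E-box in capitals.
Imp4, 121 bases before the start, plus strand, chr1:34439696-34439725: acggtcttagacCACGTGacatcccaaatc
Nop2, 60 bases before the start, plus strand, chr6:125131811-125131840: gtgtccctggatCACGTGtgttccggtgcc
Utp18, 20 bases before the start, minus strand, chr11:93885769-93885798: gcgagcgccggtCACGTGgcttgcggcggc
Pes1, base 3 after the start, plus strand, chr11:3963965-3963994: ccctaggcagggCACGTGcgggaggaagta
Utp4, base 16 after the start, plus strand, chr8:106893643-106893672: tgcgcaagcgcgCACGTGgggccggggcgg
Wdr43, base 18 after the start, plus strand, chr17:71616220-71616249: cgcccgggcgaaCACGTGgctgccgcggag
Utp20, base 38 after the start, minus strand, chr10:88826765-88826789: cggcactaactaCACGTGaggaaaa
Pno1, base 38 after the start, minus strand, chr11:17211540-17211564: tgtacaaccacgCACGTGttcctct
In 5 of the 8 genes the motif thus lay within the first transcribed bases. The whole 250 bases before the start are shown for Imp4 and Nop2, which were 4.77-fold and 3.08-fold lower in beta cells and rose with GW8510 in both lines.
Imp4, plus strand, chr1:34439579-34439828: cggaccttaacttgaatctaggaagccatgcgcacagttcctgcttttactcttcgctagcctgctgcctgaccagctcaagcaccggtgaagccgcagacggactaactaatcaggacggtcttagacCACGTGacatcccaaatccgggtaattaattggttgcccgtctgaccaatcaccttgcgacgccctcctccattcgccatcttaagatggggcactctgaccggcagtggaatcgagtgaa
Nop2, plus strand, chr6:125131633-125131882: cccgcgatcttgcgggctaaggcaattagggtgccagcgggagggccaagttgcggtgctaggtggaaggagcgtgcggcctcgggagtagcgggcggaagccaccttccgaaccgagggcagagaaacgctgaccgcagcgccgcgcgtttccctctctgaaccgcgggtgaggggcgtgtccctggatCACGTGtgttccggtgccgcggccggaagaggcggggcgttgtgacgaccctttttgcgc
Over the 8 members with the motif the median change with GW8510 was 0.41 in alpha and 0.37 in beta cells, against 0.15 and 0.19 over the 27 without it, and the median line difference was -1.30 against -0.89. These medians are a description of a few genes, with no test, and a match of letters is not a measurement of binding. Of the 8 genes, Imp4, Nop2, Pno1, Utp4 and Wdr43 were called higher in both lines and Pes1 in beta cells alone. Utp20 was called in opposite directions in the lines. Utp18 was called lower in alpha cells, a call lost when single arrays were left out. Rrs1, with the widest line difference, had no promoter window, so its motif is not known here. Whether direction goes with the motif was not tested.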

How the data were processed

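RNA of 12 cultures was measured on 1 array each, 3 per group. Per the labels, the authors normalised the arrays by RMA (version not given in the sources used here) and deposited linear intensities, which lie between 20 and 20000; the origin of these bounds is not given in the sources used here. Of 22690 probe sets, 20380 had 1 gene symbol in the platform annotation; 330 at a bound on all arrays were left out, and 1 probe set per gene gave 12255 genes. Intensities were taken to log2 with no pseudocount and fitted with group means in limma 3.58.1 (R 4.3.3), with eBayes and Benjamini-Hochberg adjustment over all genes, at an adjusted p under 0.05. Tables used Python 3.11.15 and pandas 2.3.3. The fit was tested on simulated data. The number of arrays limits the precision. The labels call the replicates biological. The members and lists were chosen with earlier results of these data known. Array values are given mainly for members called with non-overlapping arrays. These were the 6 largest rises and falls of each line, the 6 largest differences in response each way and the 5 largest between untreated lines. They are also given for members whose probe sets oppose each other and, outside these rules, for Polr1a, Fbl, Npm1, Pno1 and Bop1. Levels of different probe sets were not ranked. Of the wider lists, the genes named were taken mainly from those with the largest called changes, up to 4 per list in each line. Not all of those were named. Alternatives were another normalisation, pseudocount, dim filter, probe set, array weights, spread estimate, arrays in the fit, replicate block and leaving out each array.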

Additional observations from a re-analysis of the deposited data

Results flagged for a closer look

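The response to GW8510 differed between the lines, by the test of the difference itself (limma, adjusted p under 0.05), in 11 of the 42 members, where 28.6% of all genes tested differed (16.5% with the higher change in beta cells, 12.1% in alpha cells), so the count is near that of genes at large. The values here are the log2 change in beta cells minus that in alpha cells. The change was higher in beta cells for Utp4 (0.4709), Pes1 (0.4513), Gnl3 (0.2759), Nip7 (0.2675) and Nop2 (0.2641). It was higher in alpha cells for Utp20 (-0.9242), Polr1e (-0.9051), Tbl3 (-0.4802), Nop10 (-0.4544), Brix1 (-0.4528) and Heatr1 (-0.3967). Utp20 is the member whose change was called in each line with opposite sign. Brix1, Heatr1 and Nip7 had a second probe set that did not call the difference.

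Among the other genes named, the change was higher in beta cells for Mycn (1.3926), Taf1b (0.6878), Taf1d (0.6716), Rps25 (0.6617), Myc (0.5346) and Rps6 (0.4129), and higher in alpha cells for Rrp36 (-0.6888) and Rrn3 (-0.6748). No cause of these differences was tested.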

How the results depend on the processing

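The lower level of the members in beta cells held under all alternatives tried, with 39 to 41 members lower when 1 array was left out and 40 to 42 otherwise; its median was -1.1514 with array medians set equal (also with beta GW8510 replicate 3 left out, chosen after seeing the data) and -0.9616 with the mean of all probe sets. With GW8510, leaving out 1 array gave 19 to 22 rises and 2 to 3 falls in alpha cells, and 16 to 21 rises and 2 to 4 falls in beta cells; the other alternatives gave 16 (second probe set) to 28 (array weights) rises in alpha and 16 to 22 in beta cells. Falls numbered 5 in alpha cells with the mean of all probe sets, and 5 after quantile normalisation and 6 with array weights in beta cells. For the difference between lines, the higher count was 3 with the second probe set and 2 to 5 with 1 array left out, and the lower count 10 with array weights. With the second probe set the sign turned for Wdr43 (-0.0526) and Brix1 (-0.0947) in alpha cells, Wdr43 (-0.1886) and Pes1 (-0.1635) in beta cells, and for the difference in Heatr1 (0.2687) and Nip7 (-0.0459). The cause was not tested. Quantile normalisation moved the calls over all genes in beta cells from 2414 higher and 1764 lower to 2182 and 2255. Leaving out beta GW8510 replicate 3, the array with the highest median intensity, moved them to 1951 and 2010, so the beta backgrounds depend on that array.

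Same-numbered replicates correlated between -0.2957 and 0.1401 in their deviations from the group means. Differently numbered replicates correlated between -0.2113 and 0.2779. With so few arrays per group these values cannot decide whether the numbers pair the samples. The paper calls the DMSO controls of the alpha cells matched, without saying how. The main fit used group means and no pairing. With the replicate block 19 members rose and 2 fell in alpha cells, 17 and 2 in beta cells, 2 and 6 differed between lines, and 40 were lower in beta cells with DMSO.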
